A study of Mus musculus with 200 samples.

Results

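The alpha-globin genes *Hba-x*, *Hba-a1* and *Hba-a2* were read from the expression and allele tables by their symbols, which gave 3 of the 22033 genes in the tables. The tables describe single whole E11.5 mouse embryos, freed of extra-embryonic tissue and profiled by 3SEQ, an RNA sequencing method that reads the 3′ ends of polyadenylated transcripts. The F1 embryos were 8 with a C57BL/6J (B6) mother and a Castaneus (Cast) father (B6 × Cast) and 8 of the reciprocal cross (Cast × B6), and each carried 1 B6 and 1 Cast copy of every autosomal gene. The N2 embryos came from backcrosses of F1 animals to B6, so that each autosomal gene was either homozygous for B6 or heterozygous. Of the 154 N2 embryos with genotypes, 89 had a B6 mother and an F1 father and 65 an F1 mother and a B6 father. The F1 parents all descended from B6 mothers. Somites were counted in 147 of the N2 embryos, which had 42 to 57, and in 13 F1 embryos, which had 41 to 63.

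Hemoglobin carries oxygen in red blood cells and pairs alpha-like with beta-like chains. *Hba-x* encodes zeta globin, the embryonic alpha-like chain, which is made by primitive erythroid cells of yolk sac origin. *Hba-a1* and *Hba-a2* encode the adult alpha chain, which primitive cells also make and which definitive cells, arising in the fetal liver, use alone. The genes lie in the order in which they come to dominate, and an enhancer cluster in and near the introns of *Nprl3* upstream controls them.

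In the mm9 build, the annotated transcript of *Hba-x* lies on the plus strand at chr11:32176400-32178116, *Hba-a1* at chr11:32183511-32184465 and *Hba-a2* at chr11:32196489-32197298. Each has 3 coding exons and a coding sequence of 429 bases. The coding sequences of *Hba-a1* and *Hba-a2* differed at 1 base, C381T, counted from the first base of the start codon and given as *Hba-a1* and then *Hba-a2*. *Hba-x* differed from *Hba-a1* at 163 of the 429 positions, an identity of 62%. The stretches below hold coding bases 367 to 396 of exon 3, in which capitals mark position 381, and they show how alike the adult genes are and how far zeta stands from them. In mm9 they lie at chr11:32177946-32177975, chr11:32184329-32184358 and chr11:32197146-32197175.
Hba-x: cacgaagcctgggaCaagttcatgtctatc
Hba-a1: catgcctctctggaCaaattccttgcctct
Hba-a2: catgcctctctggaTaaattccttgcctct
Within these 30 bases, *Hba-x* differed from *Hba-a1* at 15 positions and *Hba-a2* at 1.

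This likeness bears on what the tables hold. The authors discarded any read whose best and next best alignments were within 3 differences of each other. No window of 76 bases, the length of the shorter F1 reads, differed at more than 3 positions between the coding sequences of *Hba-a1* and *Hba-a2* (0 of 354 windows), nor did any window of the length of the longer N2 reads (0 of 329). Their 3′ UTRs were identical over the 74 bases that both annotated transcripts hold. Over the genomic sequence of the last exon and 100 bases past it, 303 bases compared, they differed at 3 positions, with at most 2 in a window. Between *Hba-x* and *Hba-a1*, all 354 windows of 76 bases differed at more than 3. Reads alike in both adult genes fall under this filter, so the values of the adult rows below cannot be taken as the level of adult alpha globin RNA, and which reads passed was not tested.

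**Figure D1:**
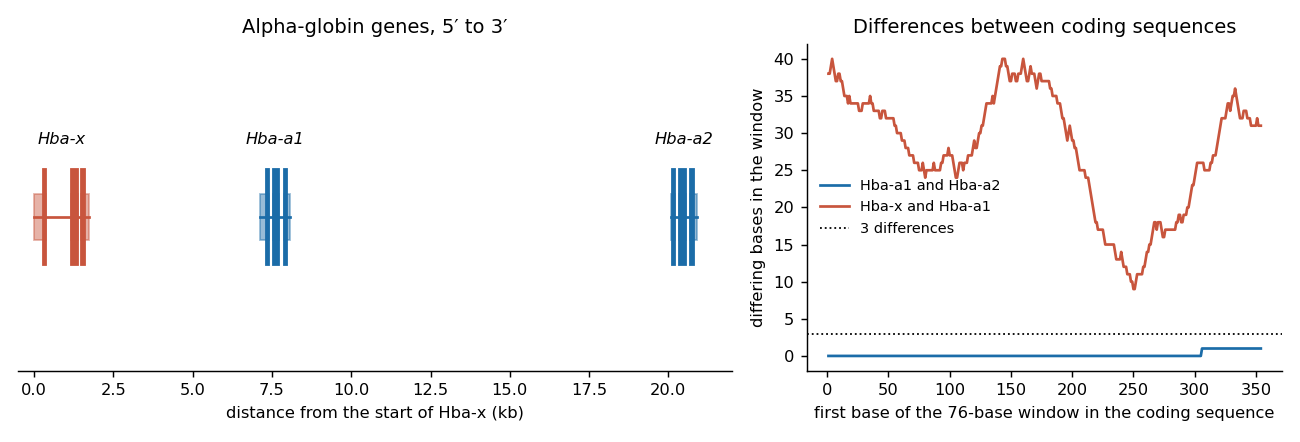
Left, the annotated exons of the 3 genes (wide boxes coding, narrow boxes untranslated) by distance in kb from the start of *Hba-x*. Right, the number of differing bases in each 76-base window of the coding sequences: *Hba-a1* and *Hba-a2* never exceed 1, while *Hba-x* and *Hba-a1* stay above 3 throughout and reach 40.

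All 3 genes passed the minimum of 5 RPM on average, where RPM is reads scaled to 1000000 reads on genes of the library. *Hba-x* averaged 1.78% of all reads on genes per N2 embryo. Its RPM ranged from 4525 to 44908 over the 154 embryos, with a median of 16160, so every N2 embryo had the transcript. The rows of *Hba-a1* and *Hba-a2* held the same count in all 168 N2 columns and all 16 F1 embryos, so they are 1 measurement, described below as the adult rows. In N2 embryos each adult row held a median of 15 reads (range 0 to 135) and a median of 7.98 RPM (range 0 to 49.6), with 1 embryo at 0. In F1 embryos each held 727 to 13776 reads, or 42.2 to 404 RPM. The F1 and N2 libraries also differed in sequencer, read length and depth (15703900 to 38234200 reads on genes in F1 libraries, 245220 to 5370320 in those of N2), and generation cannot be told apart from these. In whole embryos, fewer red cells and less RNA per cell cannot be told apart either.

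The F1 litters stood apart in *Hba-x*. In litter 1 of Cast × B6, where 3 embryos had 41 to 43 somites and the other was not counted, the RPM of zeta were 49012, 34744, 35092 and 34233. In litter 2 of that cross (46 to 48 somites, 1 not counted) they were 17890, 18977, 16643 and 13940. In litter 5 of B6 × Cast (48 to 50 somites) they were 23408, 25254, 19220, 19486 and 21091. In litter 3 of B6 × Cast, with counts of 58 and 63 somites and 1 embryo not counted, they were 3321, 5426 and 4891. No 2 of the 4 litters overlapped, the youngest litter was highest and the oldest lowest, and the means of those 2 were 38270 ± 7170 (SD, n = 4) and 4546 ± 1094 (SD, n = 3).

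The adult rows did not follow this order. Litter 3 of B6 × Cast, the oldest, was highest, with 367, 404 and 334 RPM. The 4 embryos of the youngest litter had 141, 201, 162 and 182 RPM, and both litters between them ranged from 42.2 to 245. The oldest litter thus held the lowest zeta and the highest adult reads, and the zeta share, here the reads of *Hba-x* over those of *Hba-x* and 1 adult row, was 90.1%, 93.1% and 93.6% there against 98.96% to 99.8% in the 13 other F1 embryos. Because the filter bears on the adult rows, the share describes the counted reads only.

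**Figure D2:**
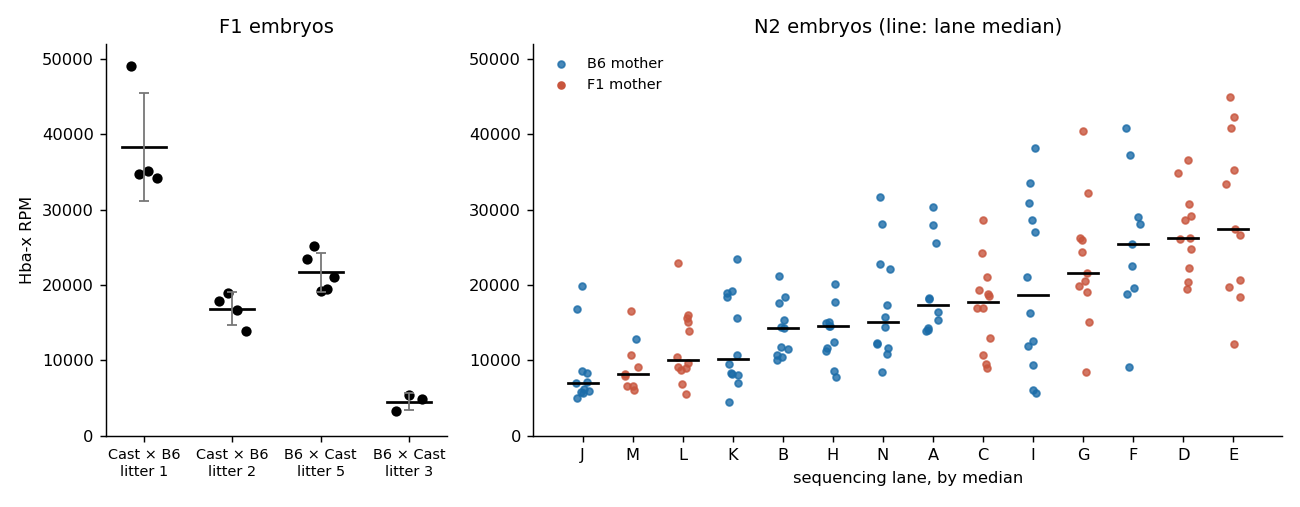
*Hba-x* in RPM for each F1 embryo by litter (left, line and bar give mean ± SD) and each N2 embryo by sequencing lane (right, line gives the lane's median, colour the mother). The F1 litters do not overlap, from 3321 to 5426 RPM in the oldest to 34233 to 49012 in the youngest, and lane medians span 6956 to 27441 RPM.

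The reciprocal cross asks whether it matters which strain was the mother. Over all 16 F1 embryos, *Hba-x* averaged 27567 ± 12450 RPM (SD, n = 8) in Cast × B6 and 15262 ± 9107 RPM (SD, n = 8) in B6 × Cast. By edgeR's quasi-likelihood test the log2 difference was 0.91 (SE 0.43), with an FDR of 0.128, and *Hba-x* was not called, while 25.9% of the genes tested were. An exact permutation test (two-sided) of log2(RPM + 1) over the same 16 embryos gave p = 0.0493. The adult rows averaged 148 ± 41.0 RPM (SD, n = 8) and 213 ± 142 RPM (SD, n = 8), with a log2 difference of -0.40 (SE 0.36) and an FDR of 0.425. The litters of the crosses differ in stage, and the direction of *Hba-x* turned when only the litters nearest in stage were compared, called stage-matched below. Their counted embryos had 46 to 48 somites in Cast × B6 and 48 to 50 in B6 × Cast, so the match is not exact. Litter 2 of Cast × B6 averaged 16863 ± 2169 RPM (SD, n = 4) and litter 5 of B6 × Cast 21692 ± 2597 RPM (SD, n = 5), without overlap. There the log2 difference of *Hba-x* was -0.43 (SE 0.13), with an edgeR FDR of 0.0586 beside 10.7% of genes called, and the exact permutation test gave p = 0.0159. That comparison sets 1 litter against 1. The sequencing runs differed too: each embryo of litter 5 has a run whose title begins with ga, and no embryo of litter 2 has. Cross, litter, sequencing run and the remaining difference in stage therefore cannot be told apart.

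The embryonic and adult beta-globins of the same litters are listed beside them. The embryonic *Hbb-bh1* was higher in Cast × B6 over all 16 embryos (log2 1.69, SE 0.54, FDR 0.0280), and the adult *Hbb-b2* was lower (-2.05, SE 0.40, FDR 0.00201). In the stage-matched litters these differences were 0.14 (SE 0.17, FDR 0.627) and -0.70 (SE 0.23, FDR 0.0754). The embryonic *Hbb-y* did not pass in either set, at 0.21 (SE 0.24, FDR 0.539) and -0.48 (SE 0.17, FDR 0.0910).

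In N2 embryos, zeta fell with stage. Embryos with up to 45 somites had a median of 22587 RPM (range 6981 to 44908, n = 21), those with 46 to 48 a median of 15976 (4525 to 42350, n = 45), those with 49 to 52 a median of 15095 (5578 to 40899, n = 67) and those with 53 or more a median of 8869 (4967 to 25930, n = 14). The bins overlap widely, and the 2 in the middle lie close to each other. Over 147 embryos, Spearman's rho between *Hba-x* RPM and somite number was -0.35 (permutation p = 3e-05), and Pearson's correlation was -0.32 (permutation p = 9e-05). Both were under 0.05 after Benjamini-Hochberg adjustment over the 7 relations computed here (7e-05 and 0.00021). With the 2 most extreme somite counts left out, r was -0.32 (permutation p = 0.00018). In the test across all genes above 5 RPM, q was 0.000263 for *Hba-x*, where 22% of 10007 genes were called, 14.1% as rising and 7.97% as falling.

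The relation was computed again within batches and litters. With sequencing lane regressed out of the ranks, rho was -0.32 (q = 0.00338), and it was -0.32 in flowcell 1 (n = 70, q = 0.0447) and -0.37 in flowcell 2 (n = 77, q = 0.00806). With litter regressed out of the ranks, an alternative chosen after seeing the data, rho was -0.28 and the call was lost (q = 0.0731, 192 genes called). Over the means of the 29 litters rho was -0.43, with q at 0.322 and 174 genes called. Lane accounted for 47.8% of the variance of log2(RPM + 1) of *Hba-x* and litter for 56.4%. Somite number accounted for 13.0%, and lane with somite number for 53.9%, as a description of these 147 embryos. These shares are not adjusted for the number of groups, 14 lanes and 29 litters against a single slope, so their sizes are not directly comparable.

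The adult rows were not called over all embryos. Their medians by stage were 6.81 RPM (range 0.557 to 26.9, n = 21) up to 45 somites, 6.66 (1.23 to 31.01, n = 45) at 46 to 48, 9.98 (0 to 49.6, n = 67) at 49 to 52 and 8.26 (1.03 to 25.3, n = 14) at 53 or more, and all 4 bins overlapped. Spearman's rho of the *Hba-a2* row with somite number was 0.19 (permutation p = 0.0247, adjusted over the 7 relations 0.0289), with Pearson's r at 0.18 (permutation p = 0.0310) and q at 0.0880 in the test across genes. In flowcell 1 rho was 0.05 (q = 0.811) and in flowcell 2 0.30, past the threshold (q = 0.0272). Without the 2 farthest embryos r was 0.18 (permutation p = 0.0324). Over all embryos the zeta share fell with stage, with rho at -0.35 (permutation p = 3e-05) and r at -0.33 (permutation p = 4e-05), although its median moved only from 99.97% up to 45 somites to 99.92% at 53 or more. Without the 2 farthest embryos its r was -0.32 (permutation p = 2e-05). In flowcell 1 alone its rho was -0.18 (n = 70, permutation p = 0.129) and in flowcell 2 -0.44 (n = 77, permutation p = 6e-05). By mother, rho was -0.56 with B6 mothers (n = 85, permutation p = 1e-05) and 0.0046 with F1 mothers (n = 62, permutation p = 0.972). The difference between the mothers was not tested for the share.

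**Figure D3:**
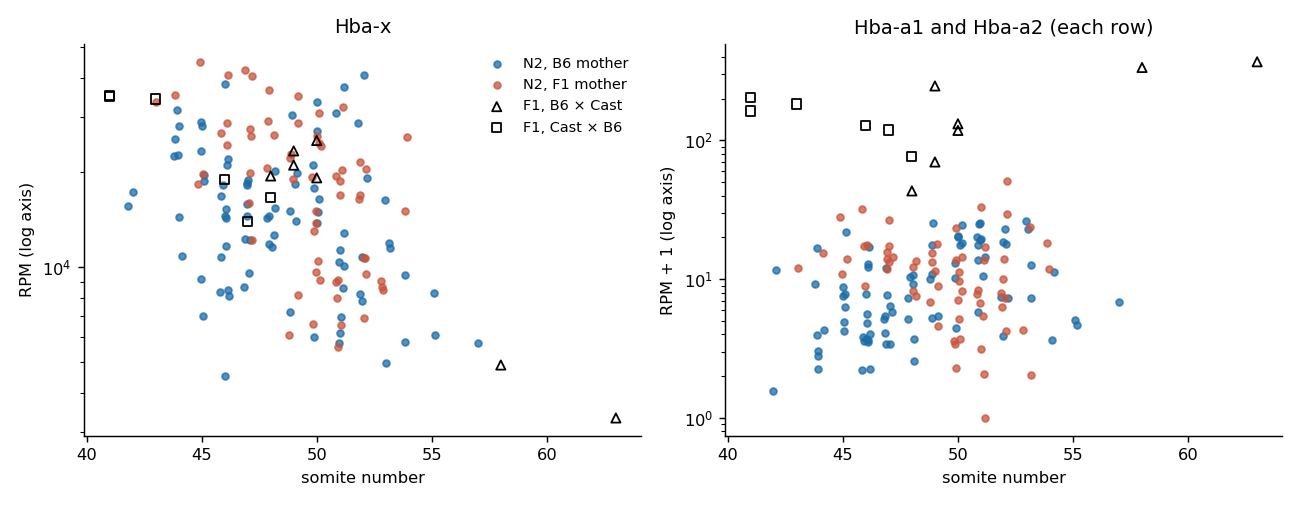
RPM of *Hba-x* (left) and of each adult row (right, RPM + 1) against somite number, on log axes, for N2 embryos by mother (filled, jittered sideways by up to 0.2 somites) and F1 embryos by cross (open). Zeta declines with somite number in N2 embryos (rho -0.35), and the adult rows of F1 embryos lie above those of nearly all N2 embryos.

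Taken over embryos, the slope with stage differed between the mothers. Among embryos of B6 mothers the log2(RPM + 1) of *Hba-x* changed by -0.078 per somite, and among those of F1 mothers by -0.17. The edgeR interaction put the difference at -0.14 per somite (SE 0.052, FDR 0.0223). For the adult rows the slopes were 0.13 with B6 mothers and -0.12 with F1 mothers, and the *Hba-a2* interaction was -0.27 (SE 0.065, FDR 0.00117). Within B6 mothers alone the adult rows rose with somite number (rho 0.44, q = 0.000241, n = 85) and within F1 mothers alone rho was -0.29 (q = 0.0778, n = 62), while *Hba-x* fell in both (rho -0.33, q = 0.00627, and rho -0.56, q = 0.000167). The interaction was called for 44.0% of the 12412 genes tested, 3889 with a positive sign and 1577 with the negative sign of the members. Of the 14 lanes, 13 held embryos of 1 kind of mother only. The fit took embryos as units and held no term for lane or litter. Litter accounted for 56.4% of the variance of log2(RPM + 1) of *Hba-x* and 52.2% of that of *Hba-a2*. Each litter had 1 kind of mother, and whether the slopes differ beyond the spread between litters was not tested.

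Of the 5 beta-globin rows, 3 rose with somite number and 1 fell, where 14.1% of all genes tested rose and 7.97% fell. Those that rose were the adult *Hbb-b2* (rho 0.60), *Hbb-b1*, whose counts equalled those of *Hbb-b2* in 148 of the 154 embryos, and *Beta-s* (rho 0.64). The embryonic *Hbb-bh1* fell (rho -0.41, q = 7.32e-06), and *Hbb-y* had a rho of -0.04 (q = 0.739). Their interaction with the mother had the same sign as that of the members, at -0.26 for *Hbb-b2*, -0.21 for *Hbb-bh1* and -0.25 for *Hbb-y* per somite (FDR 2.87e-05, 0.00542 and 8.63e-05).

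Of other red cell genes, more rose than fell over the same stages, and many did not pass. Over all genes tested, 14.1% rose and 7.97% fell. Of 23 tested genes for the red cell membrane and maturation, 10 rose and 2 fell. The largest correlations were for *Aqp1*, a water channel (rho 0.62), *Icam4*, an adhesion molecule (0.37), *Kel*, a blood group antigen (0.34), and *Slc4a1*, the anion exchanger band 3 (0.32). Of 11 regulators, 4 rose and 0 fell, namely *Zfpm1*, the GATA1 cofactor FOG1 (0.45), *Klf1* (0.26) and *Bcl11a* (0.26), which act in globin switching, and *Gfi1b* (0.22). Of 8 heme synthesis genes, 5 rose and 0 fell, among them *Fech*, which inserts the iron (0.32), *Alad* (0.31) and *Ppox* (0.28). Median rho was 0.18 for membrane and maturation, 0.06 for the regulators and 0.26 for heme synthesis, against -0.02 over all genes tested. The median of 0.60 over the 5 beta-globin rows is the value of *Hbb-b1* and *Hbb-b2*, which are nearly 1 measurement. It does not describe the embryonic *Hbb-bh1* (-0.41) or *Hbb-y* (-0.04).

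Genes of other cell types moved with stage too, beside the 14.1% of all genes that rose and the 7.97% that fell. Of 9 tested fetal liver genes 7 rose, led by *Ttr* (rho 0.57), *Apoa1* (0.54), *Apoa2* (0.47) and *Ahsg* (0.38). Their summed RPM ranged from 207 to 3307 with B6 mothers and from 388 to 1957 with F1 mothers. Of 6 leukocyte genes 4 rose, namely *S100a9* (0.43), *S100a8* (0.36), *Csf1r* (0.35) and *Mpo* (0.28), with sums of 84.6 to 1097 and 88.4 to 641, and *Ptprc* and *Emr1* had medians of 0. All 10 trophoblast and placenta genes had medians of 0, and their sum did not exceed 5.15 RPM in any embryo. The summed liver and leukocyte genes had correlations of -0.02 and 0.09 with *Hba-x* over the 154 embryos, and the part of either in the fall of zeta was not tested.

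The globin neighbourhood gave counts near those over all genes, of which 14.1% rose and 7.97% fell. Among *Hbq1b*, a theta globin gene, and the neighbours tested, 1 of 8 rose and 0 fell. The gene that rose was *Rhbdf1* (rho 0.24), while *Hbq1b* (mean 10.5 RPM, rho -0.02) and *Nprl3* (rho -0.01) were not called. *Hbq1a* and *Il9r* had means of 0.158 and 0.178 RPM and were not tested.

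The mother's genotype, B6 or F1, was compared next. With B6 mothers *Hba-x* had a median of 14511 RPM (range 4525 to 40899, n = 89), and with F1 mothers 19318 (range 5578 to 44908, n = 65), so the ranges nearly coincided. The log2 ratio of the means, F1 over B6 mothers, was 0.30. The Mann-Whitney test gave an unadjusted p of 0.0178 and a Bonferroni-adjusted p of 1, where 5.03% of 9733 autosomal genes passed 0.01, 4.28% higher and 0.750% lower with F1 mothers. By edgeR, the log2 difference of *Hba-x* was 0.34 (SE 0.14, FDR 0.0567), where 25.1% of genes were called. With somite number in the model it was 0.41 (SE 0.14, FDR 0.0212), where 27.1% were called. In flowcell 1 the log2 ratio was 0.31, and in flowcell 2, with 20 embryos of F1 mothers, it was -0.44. For the adult rows the medians were 6.54 RPM (range 0.557 to 25.3) and 10.3 RPM (range 0 to 49.6), the log2 ratio was 0.31 and the adjusted p 1. The zeta share averaged 99.93% ± 0.047 (SD, n = 17 litters) with B6 mothers and 99.93% ± 0.048 (SD, n = 12 litters) with F1 mothers (permutation p = 0.699). By the Mann-Whitney test 0 of the 5 beta-globin genes passed, and by edgeR *Hbb-bh1* was higher with F1 mothers (log2 0.56, SE 0.18, FDR 0.0123), in the fit that called 25.1% of genes. Among the 10 regulators tested 1 was higher with F1 mothers, *Ldb1*, as were 1 of 7 heme synthesis genes, *Cpox*, and 2 of 23 membrane genes, *Epb4.1* and *Epb4.9*, while *Tmod1* was lower.

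Lanes differed in *Hba-x* too. The lowest lane median of *Hba-x* was 6956 RPM (lane J, B6 mothers, n = 11) and the highest 27441 RPM (lane E, F1 mothers, n = 11), and within lane E alone embryos ran from 12197 to 44908 RPM. Lane M, the only one with both kinds of mother, held 8 embryos of F1 mothers and just 1 of the other kind, too few for a value, so the lane and the mother cannot be told apart beyond the flowcell values above.

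The backcross also lets the copies of the locus itself be compared. At *Hba-x* 73 embryos were heterozygous and 81 homozygous for B6, and the deposited genotype codes of *Hba-x* and *Hba-a2* were the same in 153 of 154 embryos. *Hba-x* had a median of 16514 RPM in heterozygous embryos (range 4525 to 44908, n = 73) and 15612 RPM in homozygous ones (range 5578 to 42350, n = 81). After lane and somite number were regressed out of log2(RPM + 1), heterozygous embryos differed from homozygous ones by -0.064 (rank-sum q = 0.448), against a residual SD of 0.58 and 0.49. The test called 18.2% of 9733 genes.

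The adult rows did differ by genotype. Heterozygous embryos had a median of 12.3 RPM (range 1.26 to 49.6, n = 73), and homozygous embryos 5.79 RPM (range 0 to 24.2, n = 80), with overlap. The residual difference of *Hba-a2*, heterozygous minus homozygous, was 0.84 on the log2 scale, with SDs of 0.76 and 0.82 and q = 2.12e-07. It was 0.83 among embryos of B6 mothers (q = 0.000824), 0.87 among those of F1 mothers (q = 0.000646) and 0.78 without any covariate (q = 0.000192). With litter as a block in place of lane, it was 0.61 (q = 2.30e-05). Embryos with a Cast copy thus kept more reads on the adult rows, whose filter is described above, and whether the filter treats Cast and B6 reads alike was not tested. The zeta share differed by -0.056 percentage points, heterozygous minus homozygous (permutation p = 1e-05, the smallest that 100000 resamples can give).

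**Figure D4:**
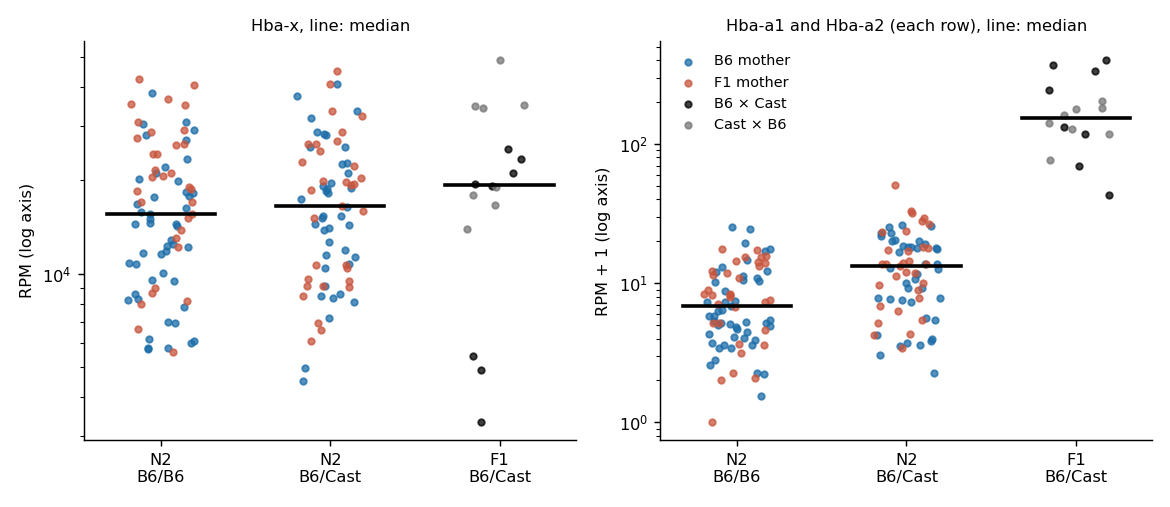
RPM of *Hba-x* (left) and of each adult row (right, RPM + 1) on log axes in homozygous and heterozygous N2 embryos and in F1 embryos, coloured by mother or cross, with the median as a line. Zeta has medians of 15612 and 16514 RPM in the N2 genotypes, while the adult rows have 5.79 and 12.3 RPM there and a median of 152 RPM in F1 embryos.

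Allele-specific reads were deposited for *Hba-x* alone. A read that covers SNPs between the strains gives 1 vote in all, split evenly over its SNPs and credited to the allele each matches, and the B6 allele fraction (BAF) is the B6 votes over the B6 and Cast votes. The adult rows had votes in 0 embryos, so no BAF exists for them. Zeta gave few votes for its depth, at 2.65 votes per 100 reads in heterozygous N2 embryos, while the median of 5318 autosomal genes compared was 40.9 and only 2.07% of them gave fewer. F1 embryos held 3032 to 72048 votes each, and 61 of the 73 heterozygous N2 embryos held at least 20, with a median of 949.

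The Cast allele of *Hba-x* gave more votes than the B6 allele. Votes come only from reads that cover SNPs. In total *Hba-x* reads, heterozygous embryos differed from homozygous ones by -0.064 on the log2 scale (rank-sum q = 0.448, as above). How these values go together was not tested. In B6 × Cast the BAF ranged from 0.339 to 0.467 with a median of 0.431 (n = 8), and in Cast × B6 from 0.341 to 0.458 with a median of 0.368 (n = 8). All 16 F1 embryos were below 0.5 (exact sign-flip permutation test, two-sided, p = 3.05e-05). In heterozygous N2 embryos the BAF was 0.424 ± 0.054 with B6 mothers (SD, n = 37) and 0.427 ± 0.061 with F1 mothers (SD, n = 24), and 54 of the 61 were below 0.5. Pooled over all 466072 votes, BAF was 0.374. The paired test of B6 against Cast votes gave a Bonferroni-adjusted p of 1.12e-05 for *Hba-x*, and 18.2% of 9084 genes were called, 8.86% with the Cast allele higher. In F1 embryos alone the same test gave an adjusted p of 1, so the call was lost there. By distance of the pooled BAF from 0.5 *Hba-x* ranked 881st of the 1654 genes called. The pooled value leans on litter 1 of Cast × B6, whose 4 embryos gave 270596 of the votes at a mean BAF of 0.353, while the mean over the 61 heterozygous N2 embryos was 0.425.

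The bias did not follow the parent of origin or the stage in these tests. In F1 embryos BAF differed by -0.037 between Cast × B6 and B6 × Cast (exact permutation p = 0.122), in the stage-matched litters by -0.0056 (4 against 5 embryos, exact permutation p = 0.865) and in heterozygous N2 embryos by 0.0029 between F1 and B6 mothers (permutation p = 0.848). Against somite number, rho was 0.04 over 58 heterozygous embryos (permutation p = 0.749, q = 0.968 across genes), where 0.299% of 3342 genes were called, and Pearson's r was 0.09 (permutation p = 0.498), or 0.04 without the 2 farthest embryos (permutation p = 0.784). Medians of BAF were 0.394 up to 45 somites (n = 9), 0.437 at 46 to 48 (n = 15), 0.412 at 49 to 52 (n = 29) and 0.428 at 53 or more (n = 5), within the spread of each bin.

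BAF went with how many votes a library gave per read, a relation that was looked at after the votes had been seen. Both measures use the same votes: the yield is B6 and Cast votes over reads, and BAF is B6 votes over both. Where Cast votes alone vary, the yield rises as BAF falls, and where B6 votes alone vary, both rise together. The shared votes can thus build in a relation of either sign, and the p-values below do not allow for it. Over the 61 heterozygous N2 embryos, the votes per 100 reads of *Hba-x* ranged from 0.0672 to 6.44. Their Spearman's rho with BAF was -0.62 (permutation p = 1e-05, the smallest possible), and Pearson's r was -0.62 (permutation p = 1e-05), or -0.60 without the 2 farthest embryos. With lane regressed out of the ranks rho was -0.52 (q = 0.0339). In the 16 F1 embryos rho was -0.80 (permutation p = 0.00028) and r was -0.81 (permutation p = 0.00016), or -0.82 without the 2 farthest (permutation p = 0.00057). Across 3418 genes the same relation was called at q under 0.1 for 14.4%, 7.55% with a negative sign, and *Hba-x* had q = 9.66e-06. BAF was also lower where *Hba-x* RPM was higher (rho -0.37, permutation p = 0.00376, r -0.34, permutation p = 0.00712, or -0.30 without the 2 farthest embryos, permutation p = 0.0196), and 7 relations were adjusted together, of which that of BAF with somite number alone was above 0.05.

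**Figure D5:**
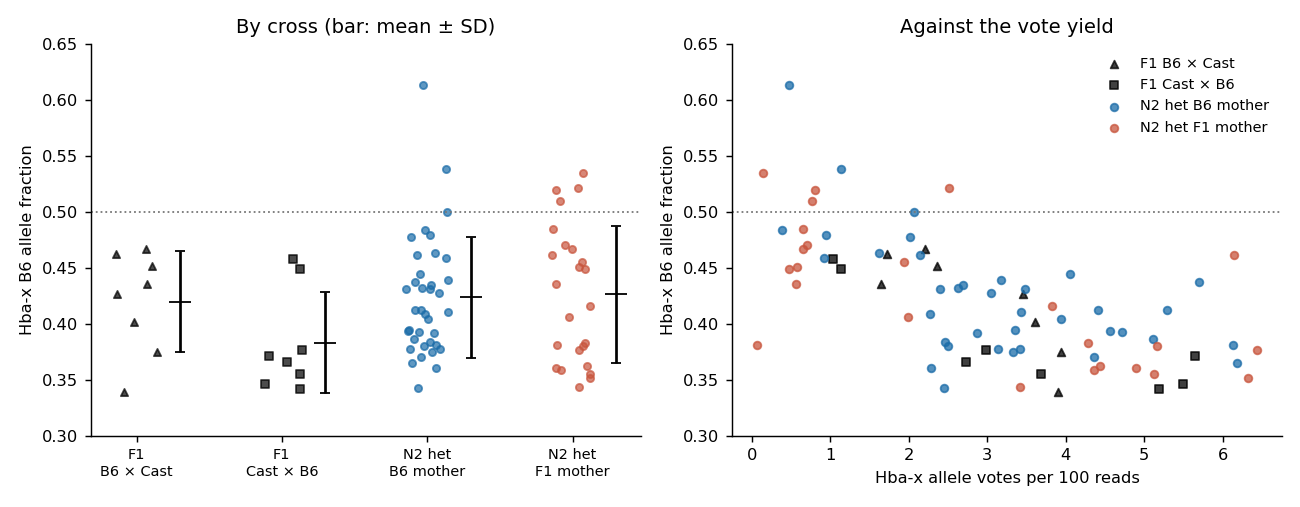
BAF of *Hba-x* per embryo by cross (left, bar gives mean ± SD) and against its allele votes per 100 reads (right), with a dotted line at 0.5. All 16 F1 and 54 of 61 heterozygous N2 embryos lie below 0.5, and embryos with more votes per read lie lower. Both axes of the right panel use the same votes.

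The vote yield itself was uneven. Lane medians over all N2 embryos ran from 0.0074 votes per 100 reads in lane E to 4.32 in lane C. Pooled over embryos, B6 votes per 100 reads were 1.05 in heterozygous and 1.70 in homozygous embryos. The medians over embryos lay in the other direction, at 0.987 (range 0 to 2.83, n = 73) and 0.809 (range 0 to 4.58, n = 81). The ratio of the pooled values was 0.614, while the median of such ratios over the 5318 genes was 0.507 and 87.1% of them had a smaller one. Homozygous embryos also gave some Cast votes of *Hba-x*, and the source of these votes was not tested. Cast votes made up 0.359% of 29770 votes with B6 mothers (Wilson 95% interval 0.298% to 0.434%) and 0.294% of 22112 with F1 mothers (0.231% to 0.374%), against 0.194% over all autosomal genes. The highest of the 64 homozygous embryos with at least 20 votes had 2.198%. These intervals cover counting error only.

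The genes whose RPM were most like that of *Hba-x* over the 154 N2 embryos included another embryonic globin at the top. Spearman's rho was 0.80 for *Hbb-bh1*, followed by *Pop5*, an RNase P subunit (0.68), *Ruvbl2*, an ATPase of chromatin complexes (0.67), *Fth1*, the ferritin heavy chain (0.66), and *Pdzk1ip1* (0.65). With lane regressed out of the ranks the order was *Hbb-bh1* (0.70), *Hbb-y* (0.67), *Pdzk1ip1* (0.65), *Cenpm* (0.53) and *Crabp1* (0.52), so that *Hbb-y* rose from rank 23 to rank 2 of 10004 genes. The adult rows were most like the adult beta-globins, with a rho of 0.52 for *Hbb-b1* and *Hbb-b2*, then *Ppp1r15a* (0.44), *2010011I20Rik* (0.42) and *Beta-s* (0.39). With lane regressed out these were *Cited4* (0.48), *Slc4a1* (0.47), *Hbb-b1* and *Hbb-b2* (0.46) and *Grap2* (0.46). Between *Hba-x* and the adult rows rho was 0.19, and 0.22 with lane regressed out. The points share libraries, lanes and total reads, and the values are descriptions.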

How the data were processed

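The authors trimmed the 3SEQ reads, mapped them with Bowtie2 to mm9 and to a Cast genome built from SNPs, and discarded reads with near-equal second alignments. They deposited raw counts of reads on the exons of each gene, allele votes (estimated counts, with no value where a gene has none) and genotype codes per gene, read as homozygous (1.0), heterozygous (0.5) or not called. Versions are not given in the sources used here. Each F1 embryo has 2 labelled runs and 1 column.

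Counts were divided by the total on genes to give RPM, and RPM above 5 on average and 20 votes were required. The kinds of test were those of the study (Spearman's correlation, Mann-Whitney and rank-sum tests, and a paired test of votes), but the inputs differed: the study scaled RPM to all sequenced reads and ran its genotype test on PEER-normalized values, and here the genotype test used residuals of log2(RPM + 1) on lane and somite number. Counts were tested with edgeR 4.0.16 and DESeq2 1.42.0, and single values by permutation tests with 100000 resamples or all splits (SciPy 1.17.1). P-values were adjusted over all genes. Embryos of a litter share a mother, so p-values over embryos measure the spread between these embryos. The rank tests, the paired vote test and the edgeR fits of cross, mother and interaction were tried on simulated data with 200 changed genes. Those data held no lane or litter effect, and the permutation tests and DESeq2 were not tried in this way. Columns of 8 N2 libraries whose labels name no mother were used in no comparison, and 6 further embryos without genotypes only in alternatives. The members and gene lists were chosen with earlier results of these data known. Named were the members, the beta-globins, theta globin and neighbours, in each other list up to 4 genes with the largest correlation with somite number, and the 5 genes most like each member. A gene that this rule names is not reported here. *Ldb1*, *Cpox*, *Epb4.1*, *Epb4.9* and *Tmod1* were named after their values were seen. Sequences and positions are from GENCODE vM1 on NCBIM37, which is mm9.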

Additional observations from a re-analysis of the deposited data

Results flagged for a closer look

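The change per somite differed between embryos of F1 and B6 mothers for both measurements of the alpha-globin genes, by the edgeR interaction test. That fit took embryos as units and held no term for litter or lane. The difference in slope, F1 minus B6 mothers, was -0.14 log2 units per somite for *Hba-x* (FDR 0.0223) and -0.27 for *Hba-a2* (FDR 0.00117). Mothers and lanes overlap in 1 lane only, and 44.0% of genes were called, 1577 with this negative sign and 3889 with a positive one.

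Of the 8 N2 libraries whose labels name no mother, 1 held 24618 reads of *Hba-x* among 1210810 reads on genes, with 11 reads on each adult row and 170 B6 and 0 Cast votes. It was used in no comparison, and the 7 others held 0 to 256 reads of *Hba-x*. In the 10 groups of 4 to 10 embryos tested for a sample apart from the others, none was found.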

How the results depend on the processing

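The fall of *Hba-x* with somite number kept its direction under every alternative run and its call under all but litter means (rho -0.43, q = 0.322) and litter regressed out of the ranks (rho -0.28, q = 0.0731). The adult rows had a rho of -0.29 with F1 mothers alone. The relation of the zeta share with somite number was 0.0046 with F1 mothers alone and -0.18 in flowcell 1. For the mother's genotype, the log2 ratio of *Hba-x* was -0.44 in flowcell 2, and with somite number in the edgeR model it was 0.41 and called. The zeta share by mother, 0.0071 percentage points, was -0.00017 over embryos and -0.047 in flowcell 2.

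In the F1 crosses the stage-matched litters turned *Hba-x* to -0.43, the adult rows to 0.0019 and the zeta share from 2.65 to -0.19 percentage points. Leaving out each embryo of these litters gave -0.47 to -0.35 for *Hba-x*, -0.21 to 0.40 for *Hba-a2* and -0.32 to -0.11 for the share. *Hba-x* passed an edgeR FDR of 0.05 there only without Cast × B6 replicate 6 (FDR 0.0389; range 0.0389 to 0.139). BAF by parent of origin was 0.0029 in heterozygous N2 embryos, and without each embryo of the stage-matched litters -0.025 to 0.0099. In F1 embryos alone the BAF of *Hba-x* minus 0.5 was -0.13 with an adjusted p of 1. The difference of *Hba-x* by its own genotype was 0.044 with no covariate. The cause of these changes was not tested.

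Over all genes, calls ranged from 174 to 5161 for somite number (2206 as reported), 0 to 3290 for the mother (490), 546 to 4416 for the F1 cross (3788), 1086 to 2826 for allele bias (1654), 2 to 63 for BAF with somite number (10), 22 to 491 for BAF with votes (491) and 894 to 2730 for own genotype (1776). No paired analysis was possible because replicate numbers name embryos in accession order and pair none across groups, which have different litters. Litter was used as a block within N2, chosen after seeing the data: the own-genotype difference was -0.096 for *Hba-x* (q = 0.276), 0.61 for *Hba-a2* (q = 2.30e-05) and -0.041 percentage points for the zeta share (permutation p = 0.00025). Depth limits the adult rows, with a median of 15 reads, and the BAF of the 12 heterozygous embryos with under 20 votes.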
